A study of Mus musculus with 8 samples.

Results

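The 34 genes described here make, recycle and remove the nucleotides from which RNA and DNA are built. They were taken from the deposited count table by gene name, and all 34 were found among its 54532 gene identifiers and stayed in the test after the filter on low counts, which left 15009 genes. By role they were 12 purine genes, 5 pyrimidine genes, 10 genes that form, remove or phosphorylate deoxynucleotides and their precursors, and 7 salvage genes. The RNA came from sorted LSK cells of C57BL/6 mouse bone marrow, the fraction without lineage markers and with Sca-1 and c-Kit on the surface, in which blood stem cells and the earliest progenitors lie. There were 3 libraries from AML1/ETO mice (genotype Runx1-Runx1t1, the gene fusion of acute myeloid leukaemia with t(8;21)) and 5 from control mice (genotype WT). Every mouse of both groups had been given poly(I:C), an inducer of interferon, 4 times at 5 mg/kg, and cells were sorted after 4 weeks and kept in DMEM with 2% serum around the sort. The sources used here do not give ages, the driver that switches the fusion allele on, or whether each library is a separate animal. The p-values therefore weigh differences against the spread between libraries, which may be technical.

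Purines are assembled stepwise on phosphoribosyl pyrophosphate (PRPP) until inosine monophosphate (IMP) is reached, from which AMP and GMP branch. Pyrimidines are assembled as a ring that is then joined to PRPP to give UMP and later CTP. Ribonucleotide reductase turns ribonucleotides into deoxynucleotides, thymidylate synthase makes the thymine nucleotide that only DNA needs, and salvage enzymes return bases and nucleosides to the pools. Cells that copy their DNA carry high activity of the reductase, of thymidylate synthase and of the cytosolic thymidine kinase, whereas resting cells rely more on salvage, on the p53-linked small reductase subunit and on mitochondrial deoxynucleoside kinases.

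Library totals ran from 14693080 to 17527043 reads. The members had a mean of 11.1 (Nme2) to 4494 reads per library. Levels are given in CPM, read counts relative to library size, which was scaled with TMM factors. Of 8 LSK marker genes 7 rose (87.5%, against 11.6% of all tested genes) and none fell. The LSK markers summed to 2829.7 to 4251 CPM in the AML1/ETO libraries and 1326 to 1639 CPM in the controls. Ly6a, which encodes the sorting marker Sca-1, stood at 221, 256 and 921 CPM in the AML1/ETO libraries and 14.97, 10.2, 23.4, 18.1 and 8.26 CPM in the controls (log2 fold change 4.96, SE 0.48, edgeR adjusted p = 2.81e-05). The gate itself cannot be checked here, so genotype and the make-up of the sorted fraction cannot be told apart in any comparison below. Xist stood at 1972 to 2168 CPM in the AML1/ETO libraries and 0 to 6.51 CPM in the controls. The 4 Y-linked genes examined had reads in every control and in no AML1/ETO library. By these genes the AML1/ETO cells were female and the control cells male. Genotype and sex therefore cannot be told apart for any gene below, on any chromosome. With scaling by library totals alone, the median change over all tested genes shifted by −0.146 (log2) and risen genes made up 34.2% of all calls in place of 44.9%. Values below are listed in the order of AML1/ETO libraries 1 to 3 and control libraries 1 to 5.

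Of the 34 nucleotide genes 10 fell and 3 rose in AML1/ETO LSK cells. The 10 that fell were Paics and Atic of purine ring assembly, Umps of pyrimidine synthesis, Rrm1, Tyms and Dut of deoxynucleotide formation, the nucleoside diphosphate kinase gene Nme1, and the salvage genes Hprt, Tk1 and Dck. The 3 that rose were Impdh1, which commits IMP to GMP, Samhd1, which breaks down deoxynucleotides, and Tk2, the mitochondrial thymidine kinase. Among all 15009 tested genes 14.2% fell, 11.6% rose and 25.7% were called in either direction (edgeR, quasi-likelihood test; threshold 0.05 for the Benjamini-Hochberg adjusted p). The 10 fallen members are 29.4% of the 34, above that background. The 3 risen members are 8.82%, a small count near the 11.6% of all tested genes. Among the 9283 genes whose mean was at least 10 CPM, 18.9% fell, 17.1% rose and 36.1% were called in either direction. Every member except Rrm2b and Nme2 reached that level. Calls in either direction made up 38.2% of the members, near the 36.1% of those genes. In 15 of the 34 the 2 groups of libraries did not overlap in CPM, against 31.6% of all tested genes. Of the 9283 genes with a mean of at least 10 CPM, 3797 were without overlap. A member that did not pass the threshold is not thereby shown to be unchanged. The median log2 fold change was −0.35 over the members and −0.09 over all tested genes. In bulk RNA from a sorted fraction, fewer cells of a type and less RNA per cell cannot be told apart. Without both first libraries 13 members were again called, of which 12 were shared, Hprt dropping out and Rrm2 joining. Leaving out any one of control libraries 2 to 5 left 6 fallen members, since Tyms, Nme1, Hprt and Dck then missed the threshold.

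**Figure D1:**
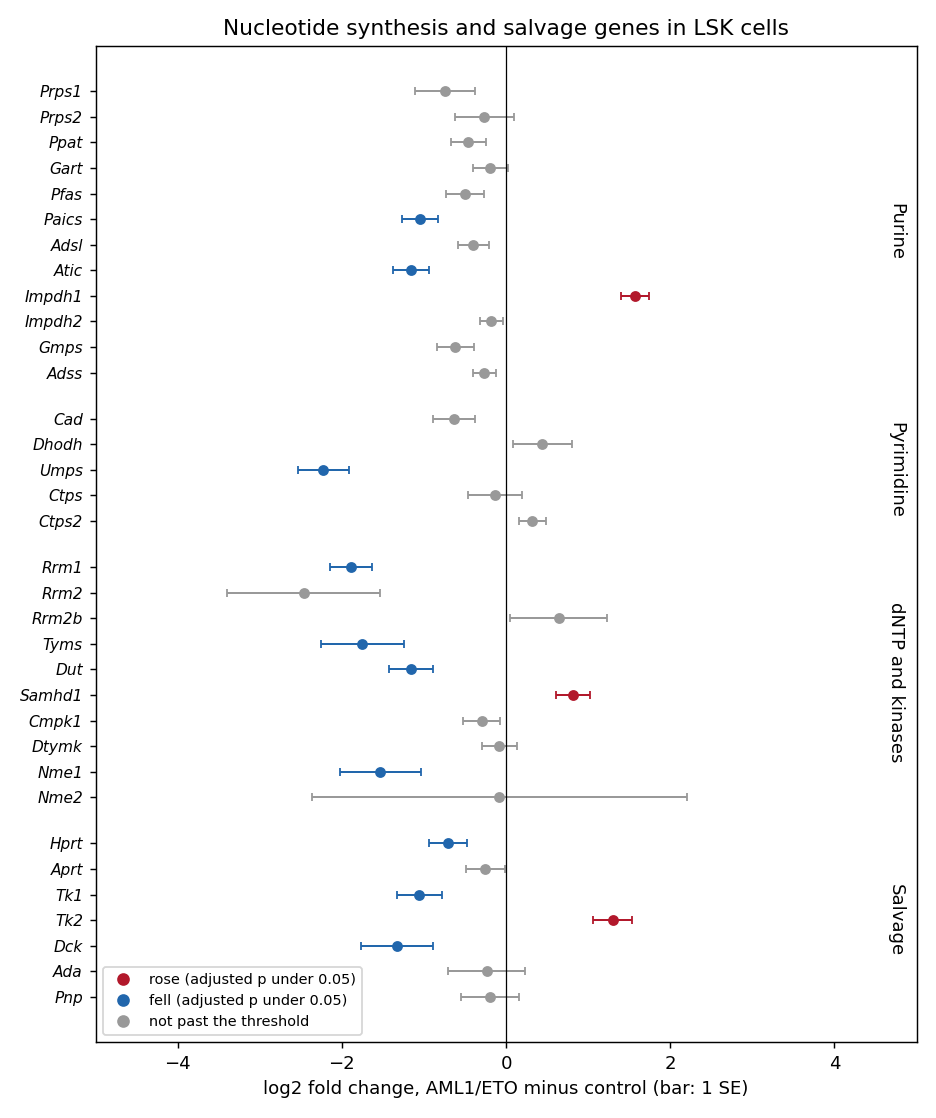
Fitted log2 fold change of each member, AML1/ETO minus control, with 1 SE, grouped by arm of the pathway; blue genes fell, red genes rose and grey genes did not pass the threshold of 0.05 for the adjusted p. Umps (−2.22) and Rrm1 (−1.89) lie farthest to the left of the called genes and Impdh1 (1.57) farthest to the right.

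Of the 6 enzymes of purine ring assembly 2 fell, a share of 33.3%. The share was 14.2% among all tested genes and 18.9% among those with a mean of at least 10 CPM. The other 4 enzymes had fitted changes below 0 that did not pass. Paics (chromosome 5, 76951307 to 76967509 in mm10), a bifunctional enzyme of the middle of the pathway, stood at 106, 215 and 149 CPM in the AML1/ETO libraries and 266, 342, 363, 329.9 and 322 CPM in the controls. It was 2.07-fold lower, at 157 ± 54.6 CPM (SD, n = 3) against 325 ± 36.4 CPM (SD, n = 5) (log2 fold change −1.05, SE 0.22, edgeR adjusted p = 0.00411). Every AML1/ETO library lay below every control. Atic (chromosome 1, 71557150 to 71579631), which closes the purine ring to IMP, stood at 39.2, 78.0 and 51.9 CPM against 128, 112, 133, 119 and 134 CPM, again without overlap. It was 2.22-fold lower (log2 fold change −1.15, SE 0.22, edgeR adjusted p = 0.00258). In both genes AML1/ETO library 2 was the highest of its group, and both stayed past the threshold in every alternative run, with adjusted p of at most 0.0166 and 0.0281.

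The first and committed step, the amidotransferase gene Ppat, had a log2 fold change of −0.46 (SE 0.21, edgeR adjusted p = 0.134), with 28.5 to 46.4 CPM in the AML1/ETO libraries and 48.4 to 55.1 CPM in the controls, so that the groups did not overlap although the test was not passed. Gart, a trifunctional enzyme of the early ring steps, was at −0.19 (SE 0.21, edgeR adjusted p = 0.579), with 67.1 to 92.7 CPM in the AML1/ETO libraries and 66.0 to 108 CPM in the controls. Pfas, the glutamine-using synthase, was at −0.50 (SE 0.23, edgeR adjusted p = 0.134), with 35.4 to 67.7 CPM in the AML1/ETO libraries and 59.8 to 86.7 CPM in the controls. Adsl, which acts both in ring assembly and on the way to AMP, was at −0.40 (SE 0.19, edgeR adjusted p = 0.140), with 47.9 to 62.9 CPM in the AML1/ETO libraries and 62.8 to 88.5 CPM in the controls. Gart, Pfas and Adsl each had at least 1 AML1/ETO library inside the range of the controls. The antisense gene Gm15964 shares 19.7% of the exon bases of Gart, and it is not known here whether the counting used strand. Opposite-strand genes also share 1.6% of the exon bases of Impdh2 and of Tk1, 8.0% of those of Rrm2b and 8.9% of those of Pnp.

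Ppat and Paics start on opposite strands of chromosome 5, with RefSeq start sites 276 bases apart (GRCm38.p6, the assembly that mm10 denotes), and 272 bases of their exons overlap on opposite strands. Their RefSeq promoter windows, 250 bases before to 50 after each start site, are shown because Paics passed and its neighbour Ppat did not. Both fitted changes were negative, and the difference between them was not tested. All windows printed were chosen after the values were seen. The Paics window (chr5:76951052-76951351, plus strand) has in capitals an E-box CACGTG, the site class bound by MYC-family factors, and a CCAAT box, the site class bound by NFY. The Ppat window (chr5:76951529-76951828, minus strand) has in capitals 2 matches to the E2F motif TTTCCCGC, read on the other strand as GCGGGAAA, and 1 to the NRF1 core GCATGCGC, read as GCGCATGC.
Paics: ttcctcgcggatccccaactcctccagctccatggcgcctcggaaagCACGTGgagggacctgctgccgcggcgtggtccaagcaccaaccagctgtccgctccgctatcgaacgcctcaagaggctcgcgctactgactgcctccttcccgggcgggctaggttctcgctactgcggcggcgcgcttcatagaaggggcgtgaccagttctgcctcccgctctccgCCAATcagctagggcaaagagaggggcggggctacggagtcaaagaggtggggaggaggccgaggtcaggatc
Ppat: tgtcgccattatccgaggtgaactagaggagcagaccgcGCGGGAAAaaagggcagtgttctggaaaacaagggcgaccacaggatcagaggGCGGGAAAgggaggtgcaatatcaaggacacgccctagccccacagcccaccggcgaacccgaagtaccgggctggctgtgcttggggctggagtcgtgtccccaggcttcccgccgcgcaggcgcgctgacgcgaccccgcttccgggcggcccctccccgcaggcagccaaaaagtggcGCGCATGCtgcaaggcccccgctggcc

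Atic is shown as the other fallen enzyme of the ring. Its window (chr1:71556906-71557205, plus strand) holds a CCAAT box and, directly before the start site, the E-box, both in capitals.
Atic: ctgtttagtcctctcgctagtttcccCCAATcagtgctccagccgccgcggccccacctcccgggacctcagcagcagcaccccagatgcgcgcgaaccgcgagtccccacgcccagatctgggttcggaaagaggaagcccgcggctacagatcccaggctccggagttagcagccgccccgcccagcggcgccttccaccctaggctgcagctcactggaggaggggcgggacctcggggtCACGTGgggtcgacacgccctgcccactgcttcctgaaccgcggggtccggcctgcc

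The branch from IMP to the adenine and guanine nucleotides contained the largest rise among the members. Impdh1 (chromosome 6, 29200434 to 29216364) encodes one of a pair of IMP dehydrogenases, the rate-limiting enzymes of GMP synthesis. It stood at 260.0, 224 and 275 CPM in the AML1/ETO libraries and 100.4, 82.1, 83.5, 95.3 and 63.3 CPM in the controls. Impdh1 rose 2.98-fold, to 253 ± 25.9 CPM (SD, n = 3) against 84.9 ± 14.4 CPM (SD, n = 5) (log2 fold change 1.57, SE 0.17, edgeR adjusted p = 6.17e-05), past the threshold in every alternative run, with adjusted p of at most 0.00314. Its paralogue Impdh2, the form that dividing cells usually favour, stood at 264, 236 and 254 CPM against 253, 300.0, 319.9, 262 and 289 CPM, with AML1/ETO libraries 1 and 3 inside the range of the controls. Its log2 fold change was −0.18 (SE 0.14, edgeR adjusted p = 0.399). Gmps, which aminates XMP to GMP, was at −0.62 (SE 0.22, edgeR adjusted p = 0.0638) with 48.2 to 80.4 CPM in the AML1/ETO libraries and 83.6 to 128 CPM in the controls, and passed with scaling by library totals (edgeR adjusted p = 0.0316, in a range from that value to 0.164 over the alternatives). Adss, which starts the branch to AMP, was at −0.27 (SE 0.14, edgeR adjusted p = 0.195) with 176.4 to 216.8 CPM in the AML1/ETO libraries and 216.99 to 260.0 CPM in the controls, so that the groups all but touched. Adss also passed with library totals alone (edgeR adjusted p = 0.0414, in a range up to 0.512).

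PRPP synthetases, which supply the sugar phosphate for purines, pyrimidines and salvage alike, did not pass the test. Prps1 stood at 21.8, 42.1 and 19.5 CPM against 22.8, 40.0, 46.6, 55.0 and 68.0 CPM, at −0.74 (SE 0.37, edgeR adjusted p = 0.164). Prps2 stood at 19.8, 75.2 and 44.6 CPM against 43.0, 66.7, 68.0, 41.3 and 61.0 CPM, at −0.27 (SE 0.36, edgeR adjusted p = 0.664). Both varied more than 2-fold within the AML1/ETO group, with library 2 highest in each. Without AML1/ETO library 2, Prps1 passed at −1.18 (edgeR adjusted p = 0.0472), the lowest adjusted p in a range up to 0.530, and without AML1/ETO library 1 the fitted change of Prps2 turned to 0.09. Both genes lie on the X chromosome, as do Ctps2 and Hprt, and the groups differ in Xist, so genotype and X-linked dosage cannot be told apart for these 4.

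**Figure D2:**
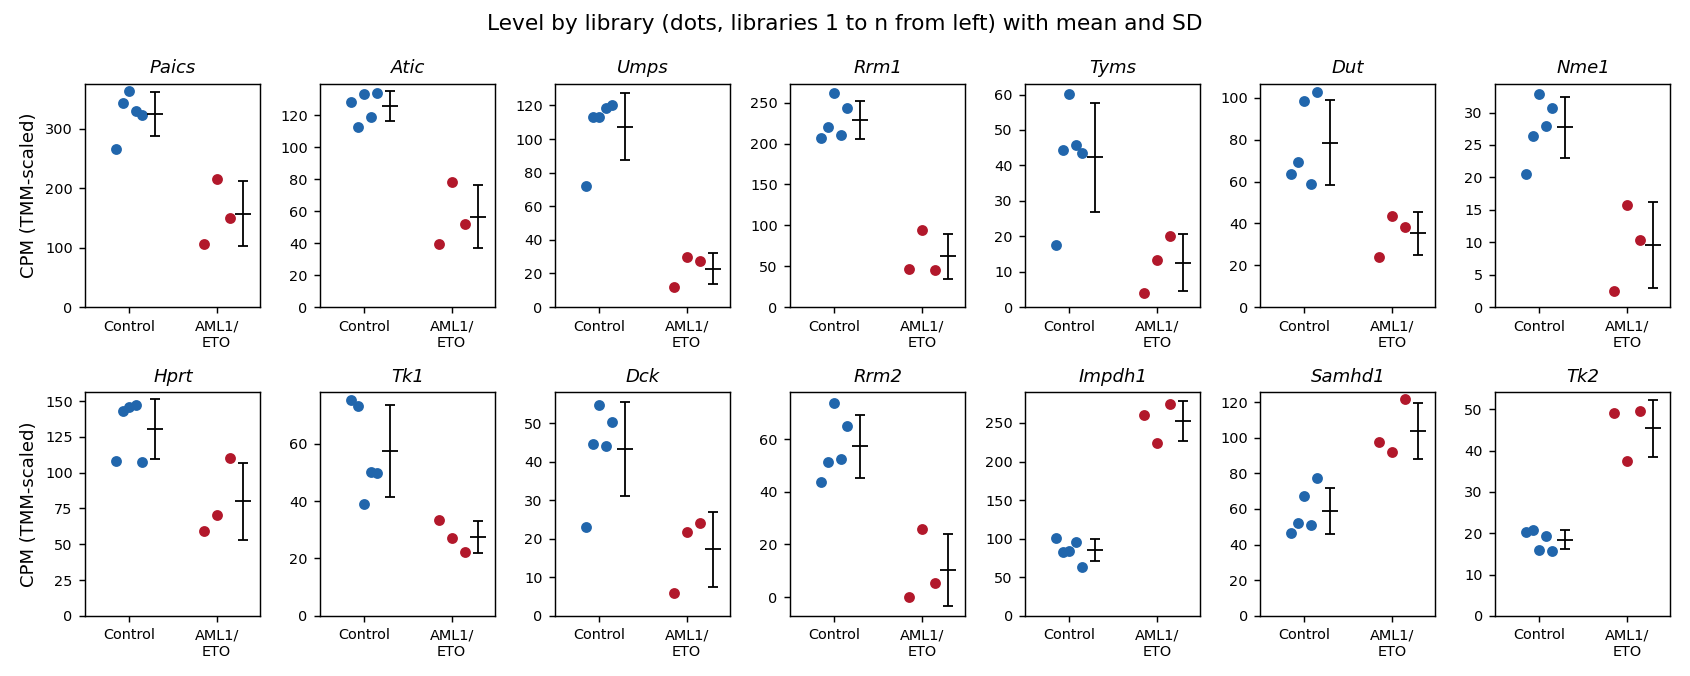
Level in CPM of the 10 members that fell, of Rrm2, which did not pass the test and was added after its values were seen, and of the 3 that rose, with 1 dot per library in the order of the library numbers and the mean and SD beside the dots. The AML1/ETO and control dots overlap only in Tyms, Hprt and Dck, through control library 1 in Tyms and Dck and AML1/ETO library 3 in all 3 genes.

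Of 5 pyrimidine synthesis genes 1 fell, a share of 20%. Among all tested genes 14.2% fell, and among those with a mean of at least 10 CPM 18.9%. Umps (chromosome 16, 33954782 to 33967038), the bifunctional enzyme that joins orotate to PRPP and decarboxylates the product to UMP, had the largest fall among the called members. It stood at 12.1, 29.5 and 27.1 CPM in the AML1/ETO libraries and 72.1, 113, 113, 119 and 120.1 CPM in the controls. The groups were far apart, with control library 1 set below the other controls. Umps was 4.67-fold lower, at 22.9 ± 9.43 CPM (SD, n = 3) against 107 ± 19.9 CPM (SD, n = 5) (log2 fold change −2.22, SE 0.31, edgeR adjusted p = 0.000332), with adjusted p of at most 0.00187 in every alternative run. An antisense gene, Gm15829, shares 213 exon bases with Umps and had reads in AML1/ETO libraries 2 and 3 and control library 1 alone, 82 at most.

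Cad, whose single protein carries out the opening steps of the pathway, was at −0.63 (SE 0.26, edgeR adjusted p = 0.0948), with 49.9 to 127 CPM in the AML1/ETO libraries and 124 to 167 CPM in the controls. AML1/ETO library 2 lay above the lowest control, and without it Cad passed at −0.95 (edgeR adjusted p = 0.0208), the lowest adjusted p in a range up to 0.215. Dhodh, the mitochondrial step that ties the pathway to the respiratory chain, was at 0.44 (SE 0.36, edgeR adjusted p = 0.420), with 10.4 to 23.7 CPM in the AML1/ETO libraries and 11.99 to 13.5 CPM in the controls. The CTP synthases did not pass. Ctps stood at 19.7, 34.6 and 34.9 CPM against 18.0, 26.2, 41.5, 35.9 and 41.9 CPM, at −0.14 (SE 0.33, edgeR adjusted p = 0.824), and both first libraries were the lowest of their groups. Ctps2 stood at 99.4, 78.8 and 76.5 CPM against 75.5, 64.0, 70.5, 66.8 and 62.6 CPM, at 0.32 (SE 0.17, edgeR adjusted p = 0.184), with every AML1/ETO library above every control.

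Of 6 genes at the step of deoxynucleotide formation and removal, Rrm1, Tyms and Dut fell and Samhd1 rose. Their median log2 fold change was −1.46. Of the 6 genes 50% fell and 16.7% rose, against 14.2% and 11.6% of all tested genes. Those with a mean of at least 10 CPM had shares of 18.9% and 17.1%. Rrm1 (chromosome 7, 102441695 to 102469771), the large catalytic subunit of ribonucleotide reductase, stood at 46.3, 93.9 and 45.5 CPM in the AML1/ETO libraries and 207, 221, 262, 211 and 243 CPM in the controls. No AML1/ETO library came within 2-fold of the lowest control. Rrm1 was 3.69-fold lower, at 61.9 ± 27.7 CPM (SD, n = 3) against 229 ± 23.3 CPM (SD, n = 5) (log2 fold change −1.89, SE 0.25, edgeR adjusted p = 0.000274), and passed in every alternative run, with adjusted p of at most 0.00453.

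Rrm2, the small subunit that replicating cells use, stood at 0, 25.7 and 5.23 CPM against 43.7, 51.3, 73.9, 52.5 and 64.9 CPM. Library 1 of the AML1/ETO group had 0 reads of Rrm2 and library 2 had 411, so the group was split although it lay wholly below the controls. The test was not passed (log2 fold change −2.47, SE 0.94, edgeR adjusted p = 0.0742). Rrm2 passed without AML1/ETO library 1 at −1.89 (edgeR adjusted p = 0.0156) and without library 2 at −4.43 (edgeR adjusted p = 0.00483), in a range of adjusted p from 0.00483 to 0.182. Rrm2b, the p53-inducible small subunit used outside S phase, stood at 4.85, 8.18 and 16.2 CPM against 3.92, 4.40, 5.28, 9.49 and 8.15 CPM, with overlapping groups, and was at 0.64 (SE 0.59, edgeR adjusted p = 0.485).

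Tyms (chromosome 5, 30058202 to 30073617), thymidylate synthase, stood at 4.09, 13.4 and 20.1 CPM against 17.5, 44.3, 60.3, 45.9 and 43.5 CPM. Control library 1 lay inside the AML1/ETO range and the other controls lay at least 2-fold above it. Tyms was 3.37-fold lower (log2 fold change −1.75, SE 0.50, edgeR adjusted p = 0.0240). With control library 2, 3, 4 or 5 left out it missed the threshold at −1.71 to −1.56 (edgeR adjusted p = 0.0514 to 0.0636), the highest over the alternatives. Dut, which cleaves dUTP so that uracil is kept out of DNA and supplies the substrate of thymidylate synthase, stood at 23.8, 43.4 and 38.5 CPM against 63.5, 69.5, 98.4, 59.0 and 103 CPM. The groups did not overlap, and Dut was 2.23-fold lower (log2 fold change −1.16, SE 0.27, edgeR adjusted p = 0.00876).

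Samhd1 (chromosome 2, 157097533 to 157135265), the triphosphohydrolase that degrades deoxynucleotides and restricts viruses, stood at 97.4, 91.8 and 122 CPM in the AML1/ETO libraries and 46.7, 51.9, 67.3, 51.0 and 77.3 CPM in the controls. Every AML1/ETO library was above every control. It rose 1.76-fold, to 104 ± 15.8 CPM (SD, n = 3) against 58.8 ± 12.95 CPM (SD, n = 5) (log2 fold change 0.82, SE 0.21, edgeR adjusted p = 0.0126). Without AML1/ETO library 3 it missed the threshold at 0.68 (edgeR adjusted p = 0.0618), the highest adjusted p over the alternatives.

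The windows of Rrm1 and Tyms are shown as those of the reductase and of thymidylate synthase. The Rrm1 window (chr7:102441445-102441744, plus strand) has 2 CCAAT boxes in capitals, and the Tyms window (chr5:30073576-30073875, minus strand) has 1 E-box in capitals.
Rrm1: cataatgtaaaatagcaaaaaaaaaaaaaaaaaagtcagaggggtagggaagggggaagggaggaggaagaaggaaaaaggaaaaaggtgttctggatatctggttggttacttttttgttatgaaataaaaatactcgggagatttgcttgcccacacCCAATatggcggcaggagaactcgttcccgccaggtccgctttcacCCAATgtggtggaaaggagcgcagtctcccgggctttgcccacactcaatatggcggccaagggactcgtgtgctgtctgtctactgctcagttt
Tyms: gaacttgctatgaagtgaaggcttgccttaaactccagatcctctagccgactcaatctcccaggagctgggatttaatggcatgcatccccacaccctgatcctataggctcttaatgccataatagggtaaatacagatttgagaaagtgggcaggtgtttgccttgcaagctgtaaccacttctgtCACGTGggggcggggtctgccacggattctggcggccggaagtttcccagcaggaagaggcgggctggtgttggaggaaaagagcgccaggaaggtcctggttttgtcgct

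Of 4 kinase genes that raise nucleotides to diphosphates and triphosphates, 1 fell, a share of 25%. Among all tested genes 14.2% fell, and among those with a mean of at least 10 CPM 18.9%. Nme1, a nucleoside diphosphate kinase, stood at 2.50, 15.8 and 10.4 CPM against 20.5, 26.5, 32.9, 27.9 and 30.7 CPM, without overlap. It was 2.89-fold lower (log2 fold change −1.53, SE 0.49, edgeR adjusted p = 0.0394), and missed the threshold without AML1/ETO library 3 at −1.60 (edgeR adjusted p = 0.0774) and without control library 2, 3, 4 or 5 at −1.51 to −1.43 (edgeR adjusted p = 0.0753 to 0.0876), up to the highest over the alternatives. Its paralogue Nme2 stood at 2.04, 0 and 0 CPM against 0, 2.23, 0.495, 0.873 and 0 CPM. The readthrough gene Gm20390 covers 48.9% of the exon bases of Nme2 and 12.5% of those of Nme1 and had 0 reads in every library, and the sources used here do not say how reads that fall on more than 1 gene were treated. The level of Nme2 is therefore uncertain. Cmpk1, which phosphorylates UMP and CMP, was at −0.30 (SE 0.22, edgeR adjusted p = 0.381), with 53.5 to 99.8 CPM in the AML1/ETO libraries and 70.6 to 106 CPM in the controls. Dtymk, which phosphorylates thymidine monophosphate, was at −0.08 (SE 0.21, edgeR adjusted p = 0.840), with 69.1 to 94.8 CPM in the AML1/ETO libraries and 60.0 to 110.1 CPM in the controls, and all 3 AML1/ETO libraries lay inside the range of the controls.

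Of 7 salvage genes 3 fell and 1 rose, shares of 42.9% and 14.3% against 14.2% and 11.6% of all tested genes. Tested genes with a mean of at least 10 CPM had shares of 18.9% and 17.1%. Of the 3 that fell, Hprt and Dck missed the threshold without any 1 of control libraries 2 to 5. Hprt, which returns hypoxanthine and guanine to the purine pool, stood at 58.9, 70.5 and 110.2 CPM against 108, 143, 146, 147 and 108 CPM. AML1/ETO library 3 lay above control libraries 1 and 5, and Hprt was 1.63-fold lower (log2 fold change −0.71, SE 0.23, edgeR adjusted p = 0.0391). It missed the threshold with DESeq2 size factors (edgeR adjusted p = 0.0577), with upper-quartile factors (0.0578) and without AML1/ETO library 1 (0.103), AML1/ETO library 2 (0.108) or control library 2, 3, 4 or 5 (0.0535 to 0.103), in a range from 0.00675 to 0.108. Aprt, the matching enzyme for adenine, was at −0.25 (SE 0.24, edgeR adjusted p = 0.501), with 36.6 to 50.2 CPM in the AML1/ETO libraries and 39.5 to 65.9 CPM in the controls.

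Tk1, the cytosolic thymidine kinase of S phase, stood at 33.5, 27.1 and 22.3 CPM against 75.3, 73.3, 39.1, 50.01 and 49.8 CPM. Every AML1/ETO library lay below every control, and Tk1 was 2.08-fold lower (log2 fold change −1.06, SE 0.27, edgeR adjusted p = 0.0140). Without AML1/ETO library 3 it missed the threshold at −0.93 (edgeR adjusted p = 0.0533), the highest adjusted p over the alternatives. Tk2 (chromosome 8, 104226685 to 104248558), the mitochondrial kinase that works in cells outside S phase, stood at 49.1, 37.4 and 49.6 CPM against 20.4, 20.8, 16.1, 19.3 and 15.8 CPM. Here every AML1/ETO library lay above every control, and the rise was 2.46-fold, to 45.4 ± 6.91 CPM (SD, n = 3) against 18.5 ± 2.38 CPM (SD, n = 5) (log2 fold change 1.30, SE 0.24, edgeR adjusted p = 0.00187).

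Dck, which phosphorylates deoxycytidine and activates cytarabine, stood at 5.98, 21.6 and 24.1 CPM against 23.0, 44.5, 54.8, 44.0 and 50.3 CPM. AML1/ETO library 1 and control library 1 were the lowest of their groups, and control library 1 lay inside the AML1/ETO range. Dck was 2.51-fold lower (log2 fold change −1.33, SE 0.43, edgeR adjusted p = 0.0426). It missed the threshold without AML1/ETO library 1 at −0.93 (edgeR adjusted p = 0.0633), without AML1/ETO library 2 at −1.53 (edgeR adjusted p = 0.0501) and without control library 2, 3, 4 or 5 at −1.29 to −1.20 (edgeR adjusted p = 0.0843 to 0.0992), and also with upper-quartile factors (edgeR adjusted p = 0.0516). Ada, which deaminates adenosine, was at −0.23 (SE 0.47, edgeR adjusted p = 0.785), with 11.5 to 19.4 CPM in the AML1/ETO libraries and 6.40 to 32.9 CPM in the controls, a wide spread among the controls. Pnp, which splits purine nucleosides, was at −0.19 (SE 0.36, edgeR adjusted p = 0.764), with 15.3 to 23.6 CPM in the AML1/ETO libraries and 13.8 to 31.1 CPM in the controls, and a readthrough gene, Gm49342, shares 718 of its exon bases.

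Paralogous enzymes of the same reaction were compared within each library as the log2 ratio of their levels. To each level 1 CPM was added, without correction for length. In 3 of 6 pairs the ratios of the groups did not overlap and the test was passed. How many pairs of other genes would do so was not determined. Among single tested genes 31.6% were without overlap in CPM. With 3 libraries against 5 the exact test has 56 arrangements and a smallest two-sided p of 0.0179. The 3 pairs that passed all had this p, and the adjusted p of each depends on the others sharing it. The Impdh1 to Impdh2 ratio was −0.02, −0.08 and 0.11 in the AML1/ETO libraries and −1.32, −1.86, −1.93, −1.45 and −2.17 in the controls (difference 1.75, exact permutation p = 0.0179, adjusted p = 0.0357 over the 6 pairs). Every AML1/ETO library had a higher ratio than every control. The Tk1 to Tk2 ratio was −0.54, −0.45 and −1.12 in the AML1/ETO libraries and 1.84, 1.77, 1.23, 1.33 and 1.60 in the controls (difference −2.26, exact permutation p = 0.0179, adjusted p = 0.0357 over the 6 pairs). It was above 0 in every control and below 0 in every AML1/ETO library. The Rrm2 to Rrm2b ratio was −2.55, 1.54 and −1.47 in the AML1/ETO libraries and 3.18, 3.28, 3.58, 2.35 and 2.85 in the controls (difference −3.87, exact permutation p = 0.0179, adjusted p = 0.0357 over the 6 pairs). Its value in AML1/ETO library 1 rests on 0 reads of Rrm2 and is set by the added 1 CPM.

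For the other 3 pairs the groups overlapped. The Prps1 to Prps2 ratio was 0.13, −0.82 and −1.15 in the AML1/ETO libraries and −0.89, −0.72, −0.54, 0.40 and 0.15 in the controls (difference −0.30, exact permutation p = 0.500, adjusted p = 0.500 over the 6 pairs). The Ctps to Ctps2 ratio was −2.28, −1.16 and −1.11 in the AML1/ETO libraries and −2.01, −1.26, −0.75, −0.88 and −0.57 in the controls (difference −0.43, exact permutation p = 0.375, adjusted p = 0.450 over the 6 pairs). The Nme1 to Nme2 ratio was 0.20, 4.07 and 3.51 in the AML1/ETO libraries and 4.43, 3.09, 4.50, 3.95 and 4.99 in the controls (difference −1.60, exact permutation p = 0.125, adjusted p = 0.188 over the 6 pairs). AML1/ETO library 1 had the lowest ratio of all 8 libraries in the Ctps and Nme1 pairs and the highest of its group in the Prps1 pair. With 5 CPM added in place of 1 the Nme1 to Nme2 difference was −1.26 and passed (exact permutation test, adjusted p = 0.0268, in a range up to 0.667), a ratio that rests on the uncertain level of Nme2. With any 1 library left out the smallest p of the exact test rises, and no pair then passed after adjustment. With 3 pairs tied at the smallest p, none of them could pass. These runs therefore cannot decide how far the shifts rest on 1 library.

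**Figure D3:**
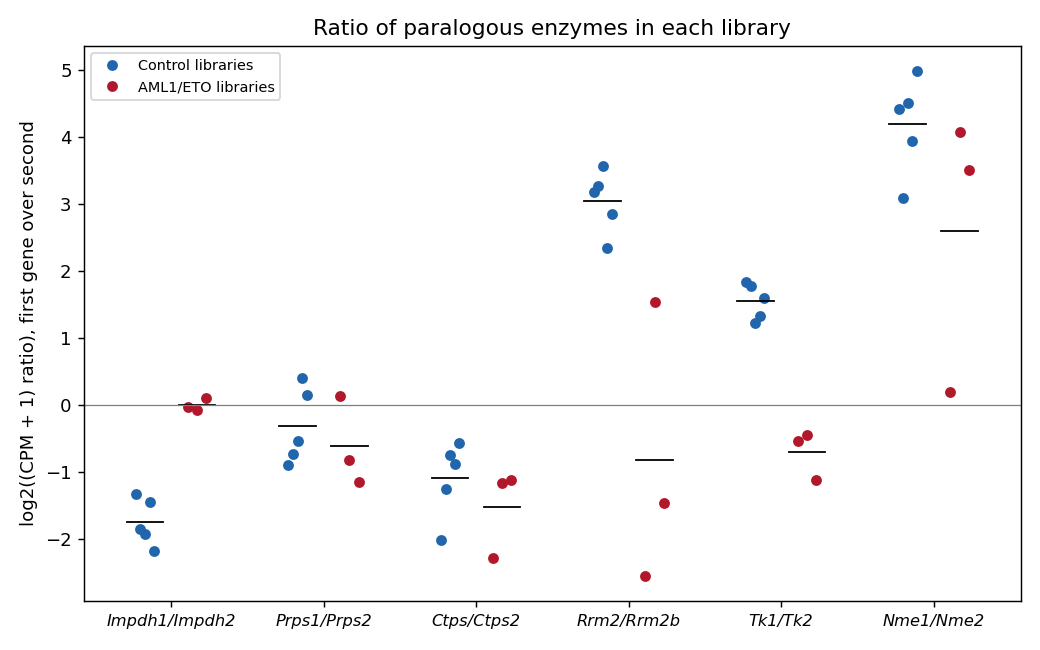
Ratio of 6 pairs of paralogous enzymes in each library, as log2 of (CPM + 1) of the first gene over the second, with black lines at the group means. The AML1/ETO libraries lie apart from the controls in Impdh1/Impdh2, Rrm2/Rrm2b and Tk1/Tk2 and overlap them in the other 3 pairs.

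Levels of different genes were set side by side per kilobase of exon. In the controls Paics was highest, at 103 ± 11.6 CPM per kb (SD, n = 5), followed by Hprt at 101 ± 16.1, Impdh2 at 92.5 ± 8.94 and Adss at 51.1 ± 3.69. The first 3 overlapped in their libraries, and Adss lay below all of them. In the AML1/ETO libraries the order began with Impdh2 at 81.8 ± 4.60 CPM per kb (SD, n = 3), Impdh1 at 76.8 ± 7.86, Hprt at 62.0 ± 20.9 and Paics at 49.98 ± 17.4. The libraries of Impdh2, Impdh1 and Hprt overlapped one another, and those of Paics overlapped Impdh1 and Hprt, so the order of these 4 is not firm. Impdh1 went from rank 10 of the 34 in the controls to rank 2, and Tk2 from rank 31 to rank 13. Umps went from rank 8 to rank 24, Rrm1 from rank 12 to rank 25 and Rrm2 from rank 13 to rank 29. Rrm2b, Dhodh and Nme2 were the lowest 3 in the controls.

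**Figure D4:**
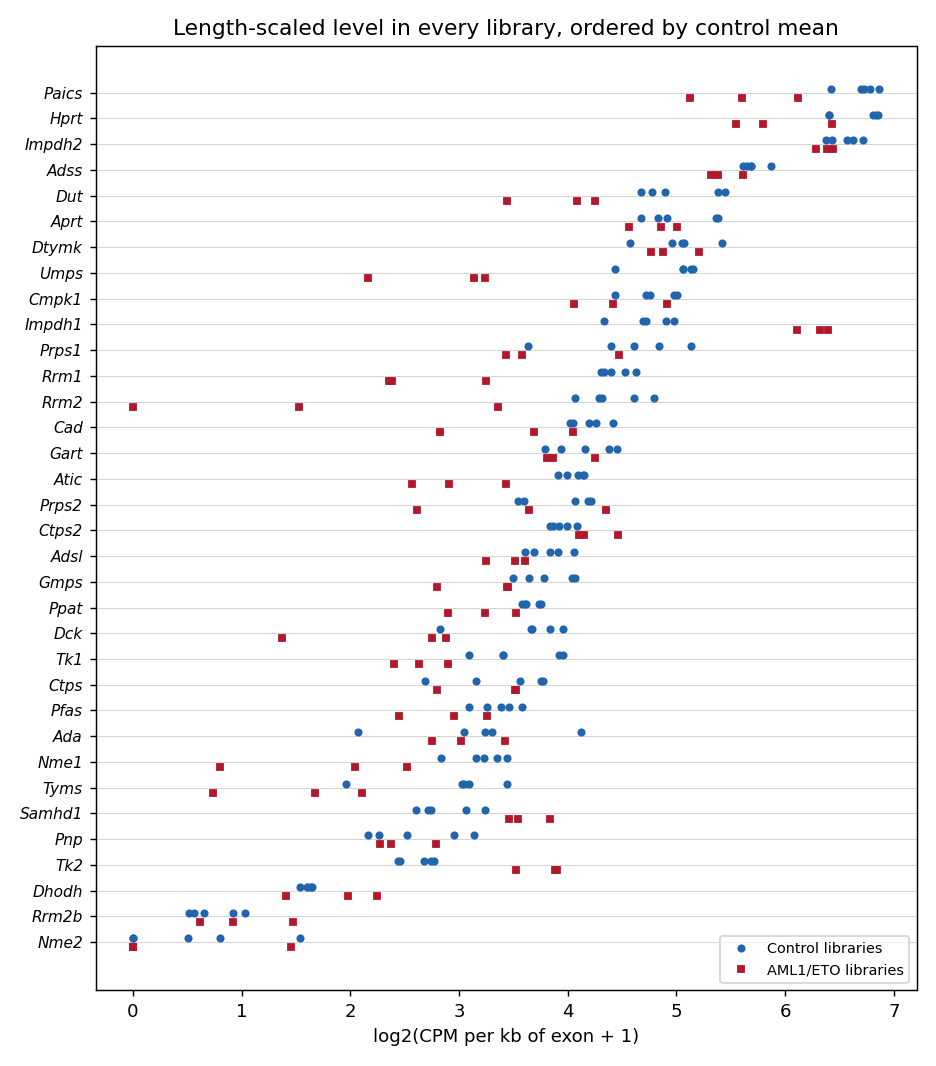
Level of each member per kilobase of exon in every library, on a log2 axis with 1 added, ordered by the control mean; blue circles are controls and red squares AML1/ETO libraries. Impdh1 and Tk2 stand to the right of their controls, and Umps, Rrm1, Rrm2 and Atic to the left.

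Of 51 other genes of nucleotide metabolism, from base degradation to transport, 46 were tested (Ampd1, Ak5, Nme3, Upp2 and Dpyd were not). Among them 5 rose and 6 fell, shares of 10.9% and 13.04%, near the background of 11.6% and 14.2%. Gda, guanine deaminase, stood at 129, 131 and 151 CPM against 15.7, 3.81, 14.96, 8.38 and 31.0 CPM (log2 fold change 3.21, SE 0.48, edgeR adjusted p = 0.000527). Gmpr, which turns GMP back to IMP, stood at 50.2, 50.1 and 75.5 CPM against 6.49, 11.8, 17.5, 15.4 and 25.1 CPM (log2 fold change 1.94, SE 0.37, edgeR adjusted p = 0.00247). In both genes the AML1/ETO libraries lay above every control. Uckl1 and Uck1, uridine-cytidine kinases of salvage, were at 1.31 and 0.53, and Nt5c, a 5'-nucleotidase that strips phosphate from deoxynucleotides, at 0.96. The call of Uck1 (edgeR adjusted p = 0.0449) was lost in 11 of its 17 alternatives, without each of 7 single libraries among them, control library 5 being the exception.

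Among those that fell, Dctpp1, which clears dCTP and its modified forms, stood at 13.1, 19.6 and 12.9 CPM against 75.3, 37.7, 53.4, 31.7 and 40.5 CPM (log2 fold change −1.65, SE 0.33, edgeR adjusted p = 0.00340). Every AML1/ETO library lay below every control. Uck2, the uridine-cytidine kinase that proliferating cells favour, was at −0.91 (SE 0.20, edgeR adjusted p = 0.00549), opposite in sign to Uck1 and Uckl1. Xdh, xanthine dehydrogenase, stood at 1.67, 0 and 0 CPM against 18.5, 10.8, 21.7, 16.9 and 19.4 CPM and had reads in AML1/ETO library 1 alone within its group (edgeR adjusted p = 0.0101). Adssl1, a paralogue of Adss, was at −0.54 (SE 0.18, edgeR adjusted p = 0.0440) and lost its call in 14 of 17 alternatives, without each of the 8 single libraries among them.

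Most proliferation genes were lower in the AML1/ETO libraries. Of 18 such genes 15 fell (83.3%, against 14.2% of all tested genes) and none rose. Their summed level was 1097 to 1905 CPM in the AML1/ETO libraries and 3147 to 3627 CPM in the controls. Mki67, a marker of cycling cells, was at −1.60 (SE 0.24, edgeR adjusted p = 0.000496) and Mcm5, a subunit of the replicative helicase, at −2.05 (SE 0.33, edgeR adjusted p = 0.000854). Pcna, the sliding clamp of DNA synthesis, was at 0.06 (SE 0.17, edgeR adjusted p = 0.838). Among the AML1/ETO libraries the summed proliferation level was 1097, 1905 and 1144 CPM in libraries 1 to 3. The fallen members summed to 333, 608 and 500 CPM in the same libraries. Of the 10 fallen members 6 were highest in AML1/ETO library 2 and 8 lowest in AML1/ETO library 1. In the controls 6 were lowest in library 1. The part of proliferation and of single libraries in the members' changes was not tested.

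Markers of other blood cells also differed. Beside the counts given here, 11.6% of all tested genes rose and 14.2% fell. Mast cell and basophil genes summed to 2480.0 to 6796 CPM in the AML1/ETO libraries and 36.1 to 98.8 CPM in the controls, with 5 of 8 tested risen and 1, Prss34, fallen to 0 reads in every AML1/ETO library. Granulocyte genes summed to 192 to 1085 CPM in the AML1/ETO libraries and 1345 to 3496 CPM in the controls, with 4 of 8 fallen and none at 0 throughout either group. Macrophage markers, of which 3 of 6 fell, summed to 37.0 to 56.7 CPM in the AML1/ETO libraries and 131 to 224 CPM in the controls. B cell markers, of which 4 of 6 fell, summed to 5.30 to 10.8 CPM in the AML1/ETO libraries and 76.4 to 222 CPM in the controls. T and NK cell markers, of which 1 of 3 tested fell, summed to 5.22 to 7.59 CPM in the AML1/ETO libraries and 60.9 to 116 CPM in the controls. The control sum was nearly all Nkg7, at 60.9 to 114 CPM. In the controls Cd4 and Trac reached at most 2.12 and 1.46 CPM. Erythroid markers, of which 2 of 6 tested fell, summed to 40.7 to 77.8 CPM in the AML1/ETO libraries and 93.4 to 188 CPM in the controls. Megakaryocyte markers summed to 191 to 641 CPM in the AML1/ETO libraries and 202 to 349.9 CPM in the controls, with 1 risen and 2 fallen of 4 tested. None of the macrophage, B cell, T and NK cell or erythroid markers rose. Single genes also carried much of the other sums. In the AML1/ETO libraries Cpa3 stood at 1771 to 6135 CPM. In the controls Mpo stood at 883 to 2268 CPM, Lyz2 at 67.6 to 136 CPM and Ighm at 69.9 to 169 CPM. Tfrc stood there at 76.6 to 140 CPM and Itga2b at 165 to 286 CPM. Markers at 0 reads in every AML1/ETO library included Cx3cr1 of the macrophage markers, Cd79a, Ebf1, Pax5 and Ighm of the B cell markers, Cd3e, Cd3d, Cd3g and Trac of the T cell markers and Vwf, Gp1bb and Gp9 of the megakaryocyte markers. Of these Cd3e, Cd3d, Cd3g and Gp1bb were at 0 in every control too. The mast cell genes Cma1 and Tpsb2 were at 0 in the controls only. In the AML1/ETO libraries Cma1 stood at 62.5 to 262 CPM, and Tpsb2 at 25.7, 1.75 and 0 CPM. The part of these cells in the nucleotide genes' levels was not tested.

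Promoter windows were found in RefSeq for 31 of the 34 members, without Rrm2b, Dhodh and Pfas, and were searched on both strands for 5 short motifs. CACGTG reads the same on both strands, and none of the 5 motifs contains another. The E-box CACGTG was in 6 of the 31 members' windows, Paics, Atic, Tyms, Nme1, Dtymk and Impdh2, of which the first 4 fell and the other 2 did not pass. Over all 27025 genes with a window, 8.09% held it. CCAAT was in 11 of the 31 members' windows, against 41.1% of genes, and 3 of these 11 genes fell (Atic, Paics and Rrm1). The E2F motif TTTCCCGC was in the windows of Ppat and Prps2 (1.24% of genes), neither of which passed the test, and TTTGGCGC in none (0.585% of genes). The NRF1 core GCATGCGC was in those of Ppat and Ctps (3.05% of genes), which did not pass either. No window of the 3 risen genes held any of the 5 motifs. These matches describe letters in a short window and are not evidence of binding. Only exact matches were counted, so a window without a match is not shown to lack a variant of the site.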

How the data were processed

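RNA-seq read counts were deposited by the authors per Ensembl gene, in 1 column for each of the 8 libraries, without pooling. Per the submitters' processing notes, the genome build was mm10 and the tools were featureCounts 1.5.0-p3 and HISAT2 2.0.5. The sources used here do not give the annotation release, the strand setting or the treatment of ambiguous reads. Counts were filtered with filterByExpr, scaled with TMM and tested with the edgeR 4.0.16 quasi-likelihood test (R 4.3.3) over all 8 libraries, with Benjamini-Hochberg adjustment over 15009 genes and a threshold of 0.05. Standard errors were derived from the F statistic. Paralogue ratios used a two-sided exact permutation test. Gene positions, exon lengths and overlaps came from GENCODE M21 (GRCm38), and promoter windows from RefSeq (GRCm38.p6).

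All members are named, with every library's value for called members and paralogue pairs; other pathway genes are named when called, except some that are not reported here. Members, lists, tests and alternatives were chosen with earlier results of these data known. Alternatives were DESeq2 1.42.0, limma-voom (limma 3.58.1), 3 other scalings, 2 other filters, libraries left out, the replicate number as a block, and no X or Y genes. The procedure was checked on simulated data, in which smaller changes were called less often than larger ones.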

Additional observations from a re-analysis of the deposited data

Results flagged for a closer look

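In the control group, 51 sets of 5 values (the members, the other called pathway genes and the paralogue ratios) were searched for a library far from the other 4, and 2 were found; chance alone gives about 1 in 20. Umps stood at 72.1 CPM in control library 1 and at 113 to 120.1 CPM in the other controls. Without control library 1 the log2 fold change of Umps was −2.31 (edgeR adjusted p = 0.000616). Adss stood at 260.0 CPM in control library 5 and at 217 to 229 CPM in the others, and without that library its log2 fold change was −0.19 (edgeR adjusted p = 0.435). The AML1/ETO group, with 3 libraries, was too small for this search.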

How the results depend on the processing

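The replicate numbers did not pair the libraries (correlation of same-numbered deviations 0.039, −0.039 and 0.027). With the replicate number as a block, 951 of all tested genes rose and 1098 fell. Then 10 members were called (without Hprt, Nme1 and Tk2). For the ratios this run took only the differences between AML1/ETO libraries 1 to 3 and the same-numbered controls. The remaining controls did not enter. The Impdh1/Impdh2, Rrm2/Rrm2b and Tk1/Tk2 differences were 1.71, −4.17 and −2.32, with an exact permutation adjusted p of 0.500 each. With so few arrangements no pair could pass, so this run cannot decide whether the shifts hold. Without both first libraries these 3 differences were 1.87, −2.98 and −2.27 (exact permutation adjusted p = 0.133 each). With 1 library left out they ranged from 1.64 to 1.85, −5.05 to −3.01 and −2.38 to −2.05, none past the threshold. Designs with fewer libraries have fewer arrangements, and with these 3 pairs tied at the smallest p none of them could pass. The Nme1/Nme2 difference with 5 CPM added was −1.26. With 1 library left out, the count of members that fell ranged from 6 to 11 and of those that rose from 2 to 3; over all tested genes 1537 to 2287 fell and 1385 to 1752 rose. In every alternative the called members kept their direction, and the reversals were among genes that did not pass. Nme2 was at 0.0113 (DESeq2) and 0.00866 (DESeq2 size factors), Ada at 0.111 (limma-voom) and 0.145 (without both first libraries), Prps2 at 0.00972 (without both first libraries), Ctps at 0.0925 (block) and the Prps1/Prps2 difference at 0.101 (block). With 1 library left out, the log2 fold change ranged from −6.62 to 0.492 in Nme2 (without AML1/ETO library 1 its group has 0 reads), −0.469 to 0.144 in Ada, −0.803 to 0.0910 in Prps2, −0.275 to 0.0812 in Ctps, −0.234 to 0.0707 in Dtymk and −0.411 to 0.0177 in Pnp. The cause of these changes was not tested. Counts limit Nme2 and Rrm2b most, with means of 11.1 and 123 reads per library.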
